A study of Mus musculus with 12 samples.

Results

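The 8 genes described here encode transcription factors that mark and maintain the hepatocyte, taken by name from a fixed list: Foxa1, Foxa2, Foxa3, Cebpa, Cebpb, Cebpd, Onecut1 and Prox1. They are 8 of the 46983 genes in the count files, each matched to a single Ensembl gene, and all 8 passed the filter on low counts that left 15664 genes to test. The study profiled the RNA of cultured primary mouse hepatocytes, in 12 libraries that form 4 groups of 3. The AEG-1-WT groups (wild type) came from littermates of AEG-1-L24K/L25H mice (knock-in), a line made with CRISPR/Cas9 on the C57BL/6/J background in which lysine and histidine replace leucines of AEG-1, the protein of Mtdh, so the altered protein is made in every cell that expresses the gene. Wild-type and knock-in mice both descended from matings between heterozygotes and were kept on regular chow. In each genotype some cultures stayed untreated and others received CP775146, which activates the nuclear receptor PPARα, for 24 h. The labels name no vehicle for the untreated cultures, and age, sex and the number of animals per group are not given in the sources used here. Whether the 3 libraries of a group stem from different animals or dishes is not stated in the labels, so p-values measure the spread between these libraries, which may be technical. The questions asked of these genes were how much of each factor's transcript the hepatocytes held, how the agonist changed it in each genotype, and how the genotypes differed with and without the agonist.

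FOXA proteins are forkhead factors that open compacted chromatin at liver enhancers, and the paralogs FOXA1, FOXA2 and FOXA3 bind nearly the same DNA sequence. C/EBP proteins are basic leucine zipper factors that bind as dimers: C/EBPα sustains the genes of the resting, metabolically active hepatocyte, while C/EBPβ and C/EBPδ are known for the acute-phase response to cytokines. ONECUT1 (HNF6) is a cut-homeodomain activator needed in bile duct and hepatocyte development, and PROX1 is a homeodomain factor of the early liver bud that also acts as a co-repressor of nuclear receptors and defines lymphatic endothelium.

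The libraries held between 26956032 and 34885451 counts, so that 3 counts stood for 0.086 to 0.111 CPM, the counts of a gene per 1000000 counts of its library. Each of the 8 genes was counted at least 200 times in every library, from Cebpd with 200 to 444 counts to Cebpb with 2686 to 3976. Values below are CPM on library sizes scaled by the trimmed mean of M-values (TMM), and a change was called where the Benjamini-Hochberg adjusted p of edgeR's quasi-likelihood test, taken over all 15664 genes, was below 0.05. The labelled cell type was checked with 8 hepatocyte markers, which were all detected and summed to 119646 to 127578 CPM in wild-type libraries and 79676 to 91074 CPM in knock-in libraries. Most of this sum was Alb, and without it the other 7 summed to 18115 to 19088 CPM in untreated wild type and 18393 to 18618 CPM in untreated knock-in, and to 15927 to 16100 and 15154 to 15631 CPM with agonist. Markers of neutrophils and lymphocytes summed to at most 0.511 CPM, with Ncr1 and Elane at 0 in every library. Markers of stellate cells and fibroblasts summed to 189 to 221 CPM in untreated and 161 to 198 CPM in treated wild type. In knock-in they summed to 109 to 123 CPM untreated and 68.2 to 78.8 CPM treated. Most of this was Reln, which averaged 200, 168, 109 and 67.1 CPM in the same order. Other cell types are given with the factor genes they express. In bulk RNA of this kind, fewer cells of a type and less RNA per cell cannot be told apart. Mtdh itself did not differ between untreated genotypes, at 173 ± 1.98 CPM in knock-in and 166 ± 8.47 CPM in wild type (SD, n = 3 each; log2 change 0.06 ± 0.04 SE, edgeR adjusted p = 0.262), which is no check of a genotype that changes residues and not the amount of RNA.

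CP775146 shifted most of the factor genes, and it did so in both directions. In wild type 3 rose (Foxa1, Onecut1, Cebpa) and 4 fell (Foxa2, Foxa3, Cebpd, Prox1), where 45.0% of all genes tested were called, 22.7% higher and 22.3% lower. The libraries of all 7 did not overlap between treatments, as was so for 49.0% of all genes. In knock-in 2 rose and 4 fell, where 37.2% of all genes were called, 18.1% higher and 19.1% lower. Foxa1 and Onecut1 were higher with the agonist in both genotypes, as were 14.2% of all genes. Foxa2, Foxa3, Cebpd and Prox1 were lower in both, as were 14.0% of all genes. The median size of change over the 8 genes, without regard to sign, was 0.43 in wild type and 0.32 in knock-in on the log2 scale, against 0.21 and 0.17 over all genes.

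The genotype moved fewer of them. Without agonist 3 were higher in knock-in (Foxa1, Foxa2, Onecut1) and 2 lower (Foxa3, Prox1), where 37.0% of all genes were called, 18.4% higher and 18.6% lower. The libraries of these 5 did not overlap between genotypes, as was so for 47.4% of all genes. With agonist Foxa1 and Foxa2 were higher in knock-in and Foxa3 and Prox1 lower, where 42.5% of all genes were called, 20.5% higher and 22.0% lower, and the libraries of the same 4 did not overlap, as was so for 51.2% of all genes. Scaling by total counts in place of TMM gave a median log2 change of all genes of 0.098 in place of −0.004 without and 0.124 in place of −0.013 with agonist, and under it 4 of the 8 were higher and 0 lower in each of these comparisons (Cebpa joined the 3 without agonist, Cebpd and Onecut1 joined Foxa1 and Foxa2 with it). A difference between genotypes in the response to the agonist was not called for any of the 8: 0 passed the edgeR interaction test, in which 7.11% of all genes were called, 2.78% with a positive and 4.33% with a negative difference. At an unadjusted p below 0.05 there were 5 of the 8, but the share of all genes at that threshold is not given here. The 5 can therefore not be set against the 7.11%. DESeq2 and voom also called 0 of the 8, and their shares of all genes are not given either. The agonist comparisons in each genotype and the genotype comparisons share libraries, so their values are given side by side only.

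**Figure D1:**
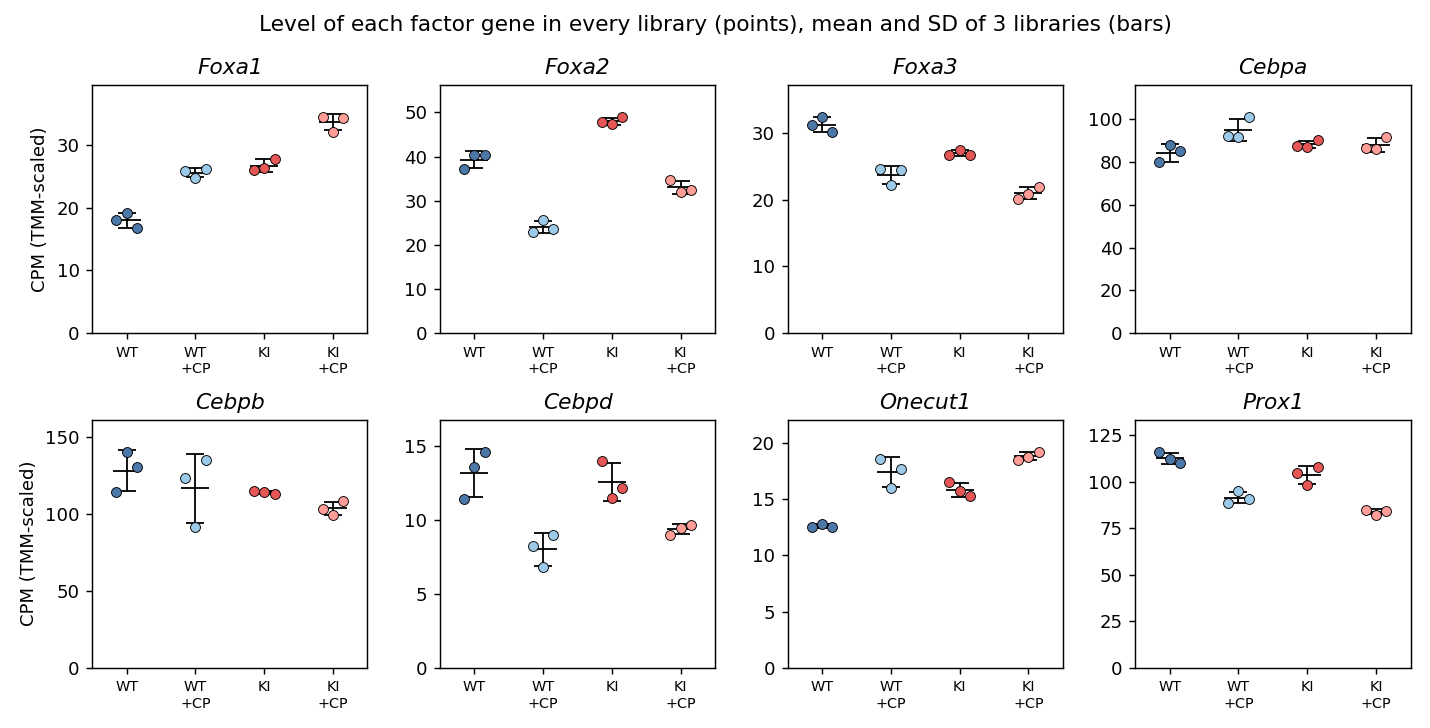
CPM (TMM-scaled, linear axes from 0) of the 8 factor genes in each of the 12 libraries, with the mean and SD of 3 libraries as bars; WT is wild type, KI knock-in and +CP the cultures given CP775146. Foxa1 and Onecut1 are lowest in untreated wild type (18.0 and 12.6 CPM on average), Foxa2 is lowest in treated wild type (24.0 CPM), and Cebpb has a treated wild-type library at 91.4 CPM below the other two.

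Levels of different genes were compared per length, as reads per kilobase of exon not shared with another gene and per 1000000 reads (RPKM). This matters for Onecut1, of whose 4113 exonic bases 2171 (52.78%) are also annotated to the lincRNA Gm20649 on the same strand, and for Cebpb, of whose 1504 exonic bases 312 (20.74%) overlap Tmem189 on the opposite strand. By the counter's default setting a read over shared bases is given to neither gene. Gm20649 held 0 counts in every library, and counting did not use strand.

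Cebpb had the most transcript per length in every group, 108 RPKM in untreated wild type and 86.7 to 97.7 RPKM in the others. Cebpa came next at 32.6 to 36.7 RPKM. The libraries of these 2 genes did not overlap with each other or with any other of the 8 in any group. Below them the order differed between groups. In untreated wild type Foxa2 (16.6 RPKM) and Foxa3 (15.4) overlapped, followed by Prox1 (13.6), Cebpd (11.2), Onecut1 (6.48) and Foxa1 (5.66). In treated wild type Foxa3 (11.7), Prox1 (11.1) and Foxa2 (10.1) formed a chain in which neighbours overlapped, then came Onecut1 (8.97), Foxa1 (8.05) and Cebpd (6.79). In untreated knock-in Foxa2 (20.3) and Foxa3 (13.3) were apart from each other, and Foxa1 (8.40) overlapped Onecut1 (8.16). Between these pairs stood Prox1 (12.5) and Cebpd (10.7), whose lowest and highest library, respectively, both rounded to 11.9 RPKM. In treated knock-in Foxa2 (13.9) was followed by Foxa1 (10.6), Foxa3 (10.3) and Prox1 (10.2), whose neighbours overlapped, and by Onecut1 (9.71) and Cebpd (7.94). Foxa1 thus stood in the last place in untreated wild type and in the fourth place in treated knock-in.

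The 3 FOXA genes are on different chromosomes and were annotated as protein-coding. In mm10 Foxa1 (ENSMUSG00000035451) lies on the minus strand at chr12:57540631-57546121, Foxa2 (ENSMUSG00000037025) on the minus strand at chr2:148042877-148046969 and Foxa3 (ENSMUSG00000040891) on the minus strand at chr7:19013284-19023538. Their upstream sequences are shown because the paralogs moved in different directions, together with that of Onecut1 (ENSMUSG00000043013, plus strand, chr9:74861921-74891781), which moved with Foxa1. Each is the stretch before the transcription start in RefSeq (GRCm38.p6), 250 bases for 3 genes and 240 for Foxa1, of which 10 bases annotated as exon were left off. They are written 5′ to 3′ on the gene's strand, and capitals mark the motifs found.
Foxa1, chr12:57546122-57546361, minus strand: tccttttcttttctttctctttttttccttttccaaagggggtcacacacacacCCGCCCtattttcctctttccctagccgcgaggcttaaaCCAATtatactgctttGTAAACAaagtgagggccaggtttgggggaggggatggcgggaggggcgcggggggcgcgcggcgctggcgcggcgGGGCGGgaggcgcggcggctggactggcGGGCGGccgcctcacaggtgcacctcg
Foxa2, chr2:148046970-148047219, minus strand: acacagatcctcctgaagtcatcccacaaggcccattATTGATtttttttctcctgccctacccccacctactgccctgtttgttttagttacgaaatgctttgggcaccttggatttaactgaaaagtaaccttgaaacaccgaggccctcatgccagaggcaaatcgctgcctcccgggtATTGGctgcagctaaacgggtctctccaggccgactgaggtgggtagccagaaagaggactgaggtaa
Foxa3, chr7:19023540-19023789, minus strand: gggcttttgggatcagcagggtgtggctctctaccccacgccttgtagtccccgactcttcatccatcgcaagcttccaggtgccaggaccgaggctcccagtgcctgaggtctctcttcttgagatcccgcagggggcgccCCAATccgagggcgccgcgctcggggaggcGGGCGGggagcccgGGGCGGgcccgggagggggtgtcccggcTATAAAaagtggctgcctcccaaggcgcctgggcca
Onecut1, chr9:74861671-74861920, plus strand: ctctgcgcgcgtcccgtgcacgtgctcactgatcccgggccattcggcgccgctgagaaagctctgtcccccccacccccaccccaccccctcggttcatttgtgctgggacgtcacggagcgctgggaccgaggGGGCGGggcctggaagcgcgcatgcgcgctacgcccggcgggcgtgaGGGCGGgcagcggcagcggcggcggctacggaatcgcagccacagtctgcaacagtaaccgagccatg

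Searched on both strands were the TATA box TATAAA, the CCAAT box CCAAT, the GC box GGGCGG, a forkhead motif TGTTTAC, a C/EBP motif TTGCNNAA, a ONECUT motif ATTGAT, the CRE TGACGTCA, the PPAR direct repeat, which is the unit AGGTCA repeated after 1 free base, and the single unit AGGTCA, of which the last 2 overlap by construction. The Foxa1 stretch held the forkhead motif on its opposite strand 141 bases before the start, which 3.17% of 32851 RefSeq promoter stretches of the same length held, with a CCAAT box at 157 bases and 3 GC boxes. The Foxa2 stretch held the ONECUT motif 213 bases before the start (6.72% of all) and a CCAAT box on the opposite strand at 68 bases, with no GC box and a GC content of 50.8%. In Foxa3 a TATA box stood 36 bases before the start (12.4% of all), with a CCAAT box at 108 bases (33.8% of all) and 2 GC boxes (32.7% of all hold at least 1). Onecut1 held 2 GC boxes and none of the other motifs. GC content was 62.0% for Foxa1, 68.8% for Foxa3 and 71.6% for Onecut1, against a median of 52.4% over all stretches. The PPAR repeat (0.0335% of all), its single unit (14.0%), the C/EBP motif (9.56%) and the CRE (1.55%) were not among the letters of these 4 stretches, nor of those of Cebpa, Cebpb and Prox1. These matches describe letters in a window and are no evidence of binding.

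Foxa1 was raised by the agonist and by the knock-in. In untreated wild type its 3 libraries had 18.1, 19.2 and 16.8 CPM, and in treated wild type 25.9, 24.8 and 26.3 CPM. Untreated knock-in libraries had 26.0, 26.4 and 27.9 CPM, and treated knock-in libraries 34.5, 32.2 and 34.4 CPM. The untreated wild-type libraries were the lowest 3 of the 12 and the treated knock-in libraries the highest 3, with no overlap in any of the 4 comparisons. The agonist raised Foxa1 by 42.4% in wild type (log2 change 0.51 ± 0.06 SE, edgeR adjusted p = 3.59e-08) and by 25.8% in knock-in (0.33 ± 0.05, edgeR adjusted p = 1.10e-05). Knock-in exceeded wild type by 48.6% without agonist (0.57 ± 0.06, edgeR adjusted p = 3.83e-09) and by 31.3% with it (0.39 ± 0.05, edgeR adjusted p = 7.72e-07). The 2 agonist responses differed by −0.18 log2 units with a 95% interval of −0.34 to −0.01, which did not pass after adjustment (edgeR interaction adjusted p = 0.203).

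Foxa2, the paralog that also controls bile acid and fasting genes, was lowered by the agonist and raised by the knock-in. Its libraries had 37.2, 40.4 and 40.4 CPM in untreated wild type and 22.9, 25.6 and 23.6 CPM in treated wild type. In knock-in they had 47.8, 47.4 and 48.9 CPM without agonist and 34.6, 32 and 32.4 CPM with it. Each treated library of a genotype was below each untreated one, and each knock-in library above each wild-type one of the same treatment. With the agonist Foxa2 fell by 38.9% in wild type (log2 change −0.71 ± 0.05 SE, edgeR adjusted p = 5.11e-12) and by 31.3% in knock-in (−0.54 ± 0.05, edgeR adjusted p = 4.53e-10). The excess in knock-in was 22.0% without agonist (0.29 ± 0.05, edgeR adjusted p = 3.33e-05) and 37.3% with it (0.46 ± 0.05, edgeR adjusted p = 4.78e-08). The interaction was 0.17 with a 95% interval of 0.02 to 0.32 (edgeR adjusted p = 0.188).

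Foxa3, a forkhead factor of liver and gut endoderm, was lowered by the agonist and, less firmly, in knock-in. Its libraries had 31.3, 32.4 and 30.2 CPM in wild type without agonist and 24.6, 22.2 and 24.5 CPM with it. Knock-in libraries had 26.7, 27.5 and 26.8 CPM untreated and 20.2, 20.9 and 22.0 CPM treated. The groups did not overlap in any of the 4 comparisons, although the highest treated knock-in library (22.0) and the lowest treated wild-type library (22.2) nearly touched. Foxa3 fell by 24.0% with agonist in wild type (log2 change −0.40 ± 0.06 SE, edgeR adjusted p = 9.01e-07) and by 22.1% in knock-in (−0.36 ± 0.06, edgeR adjusted p = 5.04e-06). Knock-in was below wild type by 0.21 ± 0.05 log2 units without agonist (edgeR adjusted p = 0.00235) and by 0.18 ± 0.06 with it (edgeR adjusted p = 0.0131). Both genotype calls rested on the scaling: with total counts the changes were −0.111 (edgeR adjusted p = 0.1) and −0.040 (edgeR adjusted p = 0.598). The second was also lost without treated wild-type replicate 1 (−0.139) or 3 (−0.150) or treated knock-in replicate 1 (−0.147).

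Set side by side per length, the paralogs changed places. The 3 genes together summed to 37.6 ± 1.12 RPKM in untreated wild type and 29.9 ± 0.351 RPKM with agonist, and to 41.9 ± 0.513 and 34.8 ± 0.866 RPKM in knock-in (SD, n = 3 each). Foxa1 made up 15.0% of that sum in untreated wild type, 27.0% in treated wild type, 20.0% in untreated knock-in and 30.4% in treated knock-in. The share of Foxa2 was 44.1%, 34.0%, 48.3% and 40.0% in the same order, and that of Foxa3 40.9%, 39.1%, 31.6% and 29.6%. The library ranges of the Foxa1 share did not overlap between any of the 4 groups. The ratio of Foxa1 to Foxa2 transcript was 0.309 to 0.362 in untreated wild type and 0.722 to 0.842 in treated wild type, and in knock-in it was 0.405 to 0.424 untreated and 0.741 to 0.788 treated. The treated groups overlapped with each other in this ratio, while the untreated groups did not. Such ratios within a library do not depend on the scaling between libraries. They describe transcripts, and protein was not measured in these files.

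**Figure D2:**
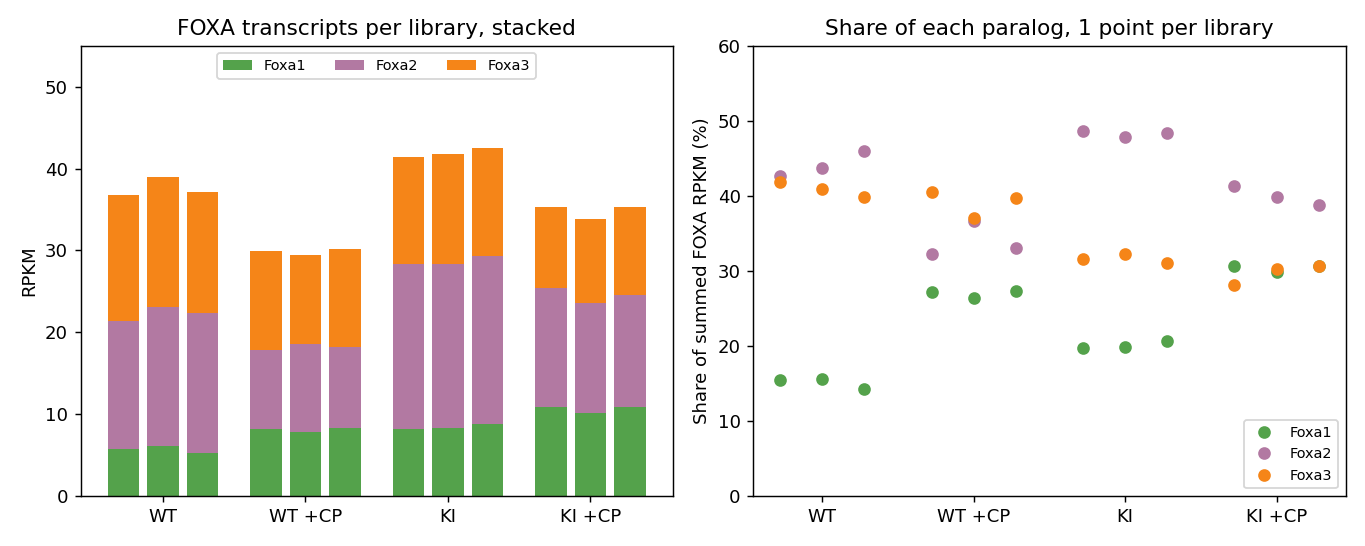
Left, RPKM of Foxa1, Foxa2 and Foxa3 stacked for each library (linear axis from 0); right, the share of each paralog in that sum in percent, with 1 point per library. The Foxa1 share runs from 14.2% to 15.5% in untreated wild type and from 29.9% to 30.6% in treated knock-in, and Foxa2 and Foxa3 are the larger parts in every library of untreated wild type.

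Of the C/EBP genes, Cebpa and Cebpb changed little or variably and Cebpd fell with the agonist. Each is made of few exons: in mm10 Cebpa (ENSMUSG00000034957) lies on the plus strand at chr7:35119293-35121928 and Cebpb (ENSMUSG00000056501) on the plus strand at chr2:167688915-167690418, both annotated as a single exon. Cebpd (ENSMUSG00000071637) lies on the plus strand at chr16:15887286-15888466. The long and short proteins that Cebpa and Cebpb each give arise from different start codons of the same mRNA, so gene counts cannot separate them.

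Cebpa had 79.9, 87.9 and 85.3 CPM in untreated wild type and 92.4, 91.7 and 101 CPM in treated wild type. Knock-in libraries had 87.7, 87.0 and 90.2 CPM untreated and 86.4, 86.0 and 92.0 CPM treated. Only treated wild type stood above its untreated counterpart in all libraries, and the knock-in groups overlapped. The agonist change was 12.5% in wild type (log2 change 0.17 ± 0.05 SE, edgeR adjusted p = 0.00281) and −0.00 ± 0.04 in knock-in (95% interval −0.09 to 0.09, edgeR adjusted p = 0.971). The call in wild type was lost with total-count scaling (0.071, edgeR adjusted p = 0.193). The difference between these responses, −0.17 with a 95% interval of −0.30 to −0.04, did not pass (edgeR interaction adjusted p = 0.105), but it did without untreated wild-type replicate 2 (−0.207, edgeR adjusted p = 0.0498). Between genotypes the change was 0.07 ± 0.05 untreated (edgeR adjusted p = 0.272) and −0.11 ± 0.04 treated (edgeR adjusted p = 0.0551), and the groups overlapped in both. Total-count scaling called the untreated difference (0.168, edgeR adjusted p = 0.00269) and turned the treated one to 0.031 (edgeR adjusted p = 0.599). The treated difference passed with the replicate number as a block (−0.107, edgeR adjusted p = 0.0422), and without untreated wild-type replicate 1 (−0.106) or 2 (−0.106), treated wild-type replicate 2 (−0.124) or treated knock-in replicate 3 (−0.138).

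Cebpb was the most abundant of the 8 and the least repeatable. Wild-type libraries had 114, 140 and 130 CPM untreated and 123, 91.4 and 135 CPM treated. Those of knock-in had 115, 114 and 113 CPM untreated and 103, 99.3 and 108 CPM treated. The wild-type libraries spread over a range that took in the knock-in values, and the knock-in libraries lay close together within each treatment. The SD of Cebpb within groups was 0.167 on the log2 scale, against a median of 0.094 over all genes and 0.047 to 0.157 for the other 7. No comparison was called: the log2 change was −0.14 ± 0.13 SE with agonist in each genotype (edgeR adjusted p = 0.43 in wild type and 0.454 in knock-in) and −0.17 ± 0.13 between genotypes in each treatment (edgeR adjusted p = 0.362 untreated and 0.348 treated). Each of these intervals ran from −0.44 to 0.16 or from −0.47 to 0.13. The agonist comparison in knock-in did not overlap between groups, as was so for 51.9% of all genes, and it passed when only these 6 libraries set the spread (−0.136, edgeR adjusted p = 0.0005). In voom, which kept all libraries but weighted them by quality, the treated genotype difference passed (−0.196, voom adjusted p = 0.042). The untreated one passed in edgeR on the compared groups alone (−0.171, edgeR adjusted p = 0.0294). Without treated wild-type replicate 2, the library at 91.4 CPM, knock-in was lower than wild type under agonist by 0.311 log2 units (edgeR adjusted p = 0.00126), the untreated difference passed at −0.175 (edgeR adjusted p = 0.0277), and the agonist change in wild type was 0.001. Tmem189, which overlaps Cebpb, had 17.0 CPM in wild type without agonist and 24.1 CPM with it, and 20.5 and 22.2 CPM in knock-in. Markers of macrophages, which also express Cebpb and Cebpa, summed to 217 to 257 CPM in untreated wild type, 188 to 193 in treated wild type, 158 to 168 in untreated knock-in and 111 to 126 in treated knock-in, with 9 of 10 markers passing the filter and most of the sum from Cd68. Without Cd68 the remaining sum was 6.09 to 12.1 CPM and highest in untreated knock-in, and their part in the Cebpb values was not tested.

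Cebpd, which is low in resting liver and strongly inducible, was lowered by the agonist. Its libraries had 11.4, 13.6 and 14.6 CPM in wild type without agonist and 8.21, 6.81 and 9.0 CPM with it. In knock-in they had 14, 11.5 and 12.2 CPM untreated and 8.98, 9.48 and 9.65 CPM treated. All 6 treated libraries were below all 6 untreated ones. With agonist Cebpd fell by 39.5% in wild type (log2 change −0.73 ± 0.10 SE, edgeR adjusted p = 1.25e-06) and by 25.3% in knock-in (−0.42 ± 0.10, edgeR adjusted p = 0.000871). The responses differed by 0.31 with a 95% interval of 0.02 to 0.59 (edgeR interaction adjusted p = 0.214). Between genotypes Cebpd changed by −0.07 ± 0.09 untreated (edgeR adjusted p = 0.573) and 0.23 ± 0.10 treated (edgeR adjusted p = 0.0755), with overlapping groups. The treated difference passed without treated wild-type replicate 3 (0.325, edgeR adjusted p = 0.025), with total-count scaling (0.368, edgeR adjusted p = 0.00424), with no filter (0.239, edgeR adjusted p = 0.0309) and with the compared groups alone (0.241, edgeR adjusted p = 0.0432). Per length, Cebpb exceeded Cebpd 8.82 to 10.2 times in untreated wild type and 13.3 to 14.8 times in treated wild type, and 8.11 to 9.88 and 10.4 to 11.3 times in knock-in.

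**Figure D3:**
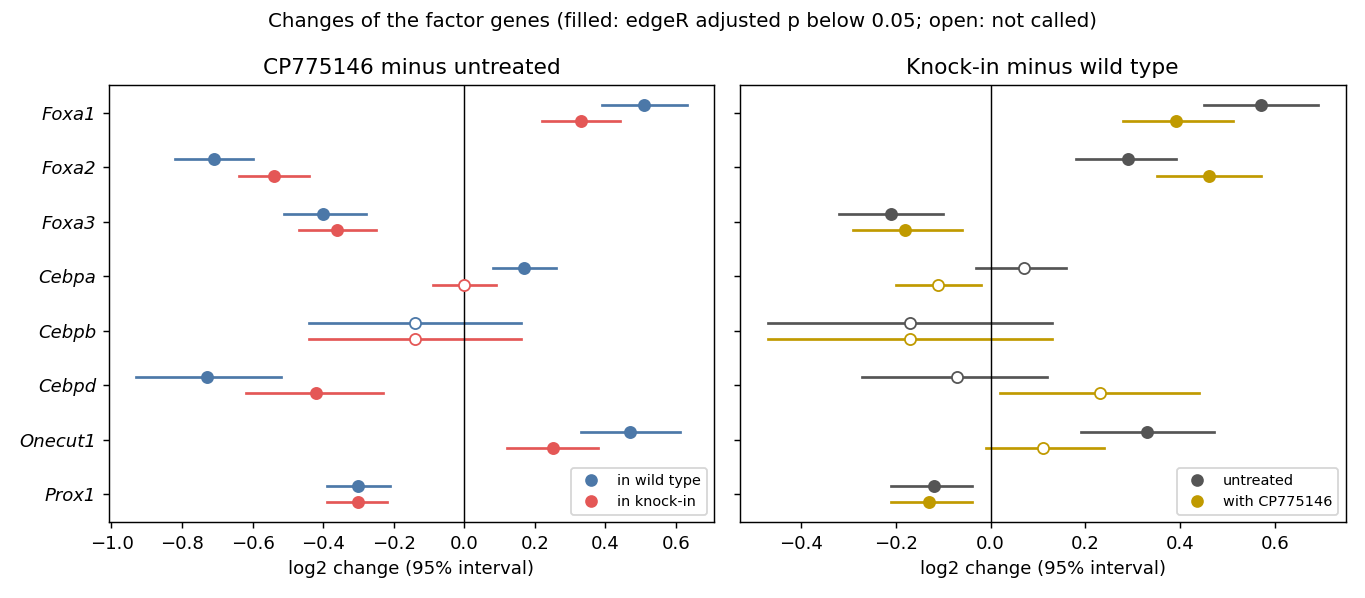
Log2 changes of the 8 factor genes with 95% intervals from the edgeR fit, for CP775146 against untreated in each genotype (left) and knock-in against wild type in each treatment (right); filled points passed at an adjusted p below 0.05 and open points did not. Foxa2 is the gene that lies left of 0 with the agonist (−0.71 and −0.54) and right of 0 in the genotype comparisons (0.29 and 0.46), and the Cebpb intervals are the widest.

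Onecut1 rose with the agonist in both genotypes and was higher in untreated knock-in. Wild-type libraries had 12.5, 12.8 and 12.5 CPM without agonist and 18.6, 16.0 and 17.7 CPM treated. Knock-in libraries had 16.5, 15.7 and 15.3 CPM untreated and 18.5, 18.8 and 19.2 CPM treated. Untreated wild type lay below all other libraries, while the treated genotypes overlapped. The agonist raised it by 38.4% in wild type (log2 change 0.47 ± 0.07 SE, edgeR adjusted p = 1.42e-06) and by 19.1% in knock-in (0.25 ± 0.06, edgeR adjusted p = 0.00185), and the interaction was −0.22 with a 95% interval of −0.41 to −0.03 (edgeR adjusted p = 0.177). Knock-in exceeded wild type by 25.7% without agonist (0.33 ± 0.07, edgeR adjusted p = 0.000237). With agonist the excess of 8.25% did not pass (0.11 ± 0.06, edgeR adjusted p = 0.151), although it did with total-count scaling (0.251, edgeR adjusted p = 0.00151) and without treated wild-type replicate 1 (0.176, edgeR adjusted p = 0.0427).

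Its paralog Onecut2, which shares targets with ONECUT1 in the developing liver, was lower in knock-in. Onecut2 had 341 ± 22.1 CPM in untreated wild type and 208 ± 11.7 CPM in untreated knock-in (SD, n = 3 each; log2 change −0.71 ± 0.08 SE, edgeR adjusted p = 8.74e-06). With agonist it had 445 ± 48.2 CPM in wild type and 218 ± 9.57 CPM in knock-in (−1.03 ± 0.07 SE, edgeR adjusted p = 1.92e-07). The ratio of Onecut1 to Onecut2 transcript per length, with Onecut2 over its whole exon length, was 0.239 to 0.273 in untreated and 0.221 to 0.317 in treated wild type. In knock-in it was 0.514 to 0.541 and 0.569 to 0.634, above every wild-type library. Cholangiocytes express Onecut1, Foxa1 and Foxa2, and the 9 cholangiocyte markers, of which 6 passed the filter, summed to 43.7 to 47.7 CPM in untreated wild type and 90.6 to 93.3 CPM in treated wild type. They summed to 65.6 to 66.8 CPM in untreated and 79.4 to 81.0 CPM in treated knock-in. Without Cldn4, the largest of them, the sums were 15.2 to 18.2 and 32.9 to 33.9 CPM in wild type and 41.0 to 43.6 and 48.5 to 52.7 CPM in knock-in. The whole sum was thus highest in treated wild type, and the sum without Cldn4 in treated knock-in. The part of these markers' cells in the Onecut1, Foxa1 and Foxa2 values was not tested.

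Prox1 (ENSMUSG00000010175, minus strand, mm10 chr1:190118035-190170714) fell with the agonist in both genotypes. Its libraries had 116, 112 and 110 CPM in wild type without agonist and 88.8, 94.8 and 90.9 CPM with it. In knock-in they had 105, 98.4 and 108 CPM untreated and 85.1, 82.3 and 84.2 CPM treated. Treated libraries were below untreated ones throughout, and within a treatment each knock-in library was below each wild-type one. Prox1 fell by 18.8% in wild type (log2 change −0.30 ± 0.04 SE, edgeR adjusted p = 6.94e-07) and by 19.0% in knock-in (−0.30 ± 0.04, edgeR adjusted p = 6.67e-07), with an interaction of −0.00 and a 95% interval of −0.12 to 0.12 (edgeR adjusted p = 0.988). Its SD within groups, 0.047 on the log2 scale, was the smallest of the 8. The difference between genotypes was small: −0.12 ± 0.04 without agonist (edgeR adjusted p = 0.0194) and −0.13 ± 0.04 with it (edgeR adjusted p = 0.0163). With total-count scaling these were −0.021 (edgeR adjusted p = 0.719) and 0.011 (edgeR adjusted p = 0.845), so the sign of the second turned. The untreated call was also lost with no filter (−0.104), and without untreated wild-type replicate 1 (−0.095) or untreated knock-in replicate 1 (−0.124) or 2 (−0.081), and the treated call without treated wild-type replicate 2 (−0.092) or treated knock-in replicate 2 (−0.111). Endothelial cells, the lymphatic kind in particular, express Prox1, and the 10 endothelial markers summed to 80.9 to 93.0 CPM in untreated and 71.0 to 72.4 CPM in treated wild type, and to 53.6 to 59.0 and 40.5 to 47.0 CPM in knock-in. The lymphatic marker Pdpn was at 0 in every library, but Flt4 and Lyve1 of the same list were detected. Flt4 averaged 4.76 (wild type, untreated), 4.2 (wild type, agonist), 7.13 (knock-in, untreated) and 5.97 CPM (knock-in, agonist). It was called higher in knock-in in both treatments. Lyve1 averaged 3.45, 2.62, 3.7 and 3.33 CPM in the same order, with neither genotype comparison called. Pdpn alone thus does not show that lymphatic cells were absent. Without Stab2 the other markers summed to 17.9 to 22.9 CPM over all 12 libraries. Their part in the Prox1 values was not tested.

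Among 22 other hepatocyte transcription factor genes 19 were tested, and the agonist lowered more of them than it raised: in wild type 3 rose and 12 fell (median log2 change −0.23, against −0.005 over all genes), and in knock-in 3 rose and 8 fell (median −0.07, against −0.01). Over all genes 22.7% rose and 22.3% fell in wild type, and 18.1% and 19.1% in knock-in. Creb3l3, which encodes a fasting-induced factor of lipid metabolism, rose from 39.2 ± 2.93 to 445 ± 28.4 CPM in wild type (SD, n = 3 each; log2 change 3.5 ± 0.05 SE, edgeR adjusted p = 3.54e-29). In knock-in it rose from 76.5 ± 0.949 to 478 ± 8.65 CPM. Zhx3 fell from 80.6 ± 1.99 to 45.0 ± 1.5 CPM in wild type and from 71.7 ± 3.26 to 44.7 ± 1.08 CPM in knock-in. Klf15, a factor of amino acid and glucose metabolism, fell from 27.3 ± 1.35 to 14 ± 0.658 CPM in wild type (edgeR adjusted p = 5.23e-14), and Gata6 from 25.0 ± 0.780 to 17.5 ± 1.19 CPM in knock-in (edgeR adjusted p = 3.70e-08). Between genotypes 6 were higher and 4 lower in untreated knock-in, 9 and 2 with total-count scaling, and 6 higher and 2 lower in treated knock-in, 12 and 1 with total-count scaling, where 18.4% and 18.6% of all genes were without and 20.5% and 22.0% with agonist. Under agonist Nr5a2 had 47.3 ± 0.852 CPM in knock-in against 31.3 ± 2.65 CPM in wild type (log2 change 0.60 ± 0.05 SE, edgeR adjusted p = 1.05e-10), and Hhex 90.8 ± 2.40 against 73.3 ± 1.41 CPM. Ppara itself rose with its agonist from 87.6 ± 1.17 to 127 ± 8.33 CPM in wild type and from 73.3 ± 2.32 to 93.8 ± 3.57 CPM in knock-in, and it was lower in knock-in by 0.26 ± 0.05 log2 units untreated and 0.44 ± 0.04 treated (edgeR adjusted p = 3.84e-05 and 2.11e-09).

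**Figure D4:**
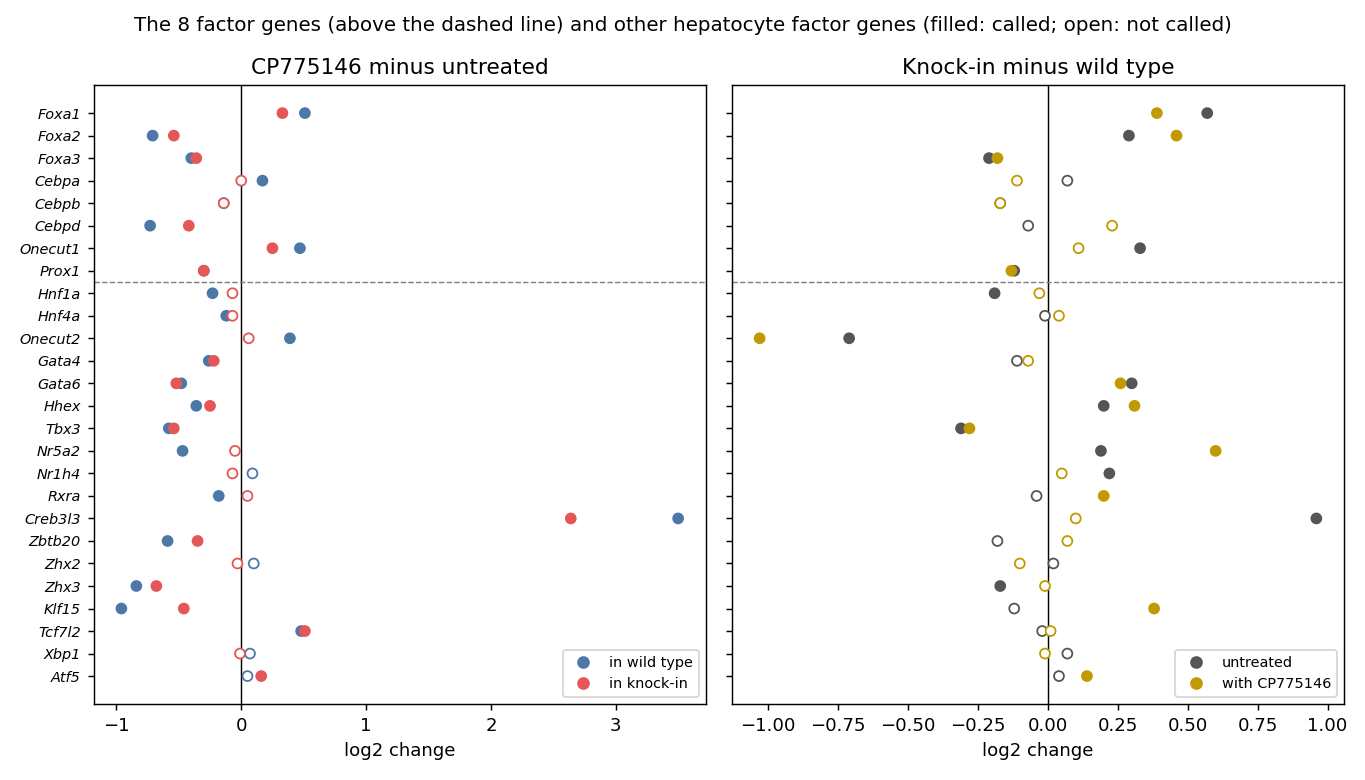
Log2 changes of the 8 factor genes (above the dashed line) and of other tested hepatocyte factor genes, for CP775146 against untreated (left, by genotype) and knock-in against wild type (right, by treatment); filled points passed the edgeR test and open ones did not. Creb3l3 lies farthest to the right in the agonist panel (3.5 and 2.64) and Onecut2 farthest to the left in the genotype panel (−0.71 and −1.03).

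Of 10 leucine zipper genes that partner or resemble the C/EBP factors, 0 were higher and 6 lower in untreated knock-in (median log2 change −0.26), and 0 higher and 5 lower in treated knock-in (median −0.23), where 18.6% and 22.0% of all genes were lower, with 2 higher in each comparison and 5 and 3 lower under total-count scaling. Nfil3, a repressor of the circadian leucine zipper family, fell from 61.5 ± 1.53 CPM in wild type to 45.1 ± 0.315 CPM in knock-in without agonist (edgeR adjusted p = 8.73e-10). With agonist it had 50.2 ± 1.23 and 35.3 ± 0.711 CPM (edgeR adjusted p = 9.92e-11). Atf3, a stress-induced factor, had 59.3 ± 3.92 CPM in untreated wild type and 42.8 ± 1.70 CPM in knock-in, and Cebpg, a C/EBP dimer partner, 141 ± 4.98 and 109 ± 2.54 CPM with agonist. The agonist raised 3 and lowered 4 of the 10 in wild type, 0 and 4 with total-count scaling, and raised 2 and lowered 4 in knock-in, 1 and 5 with total-count scaling, where 22.7% and 22.3% of all genes rose and fell in wild type and 18.1% and 19.1% in knock-in.

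Cytokine inputs to Cebpb and Cebpd were tested for 10 of 11 genes, since Il6 had 0 counts. In untreated knock-in 6 were higher and 2 lower (median log2 change 0.21), and in treated knock-in 5 higher and 2 lower (median 0.21), where 18.4% and 18.6%, and 20.5% and 22.0%, of all genes were. Il1r1, the interleukin-1 receptor, had 15.0 ± 2.35 CPM in wild type and 31.3 ± 1.79 CPM in knock-in without agonist (log2 change 1.06 ± 0.08 SE, edgeR adjusted p = 1.23e-11). Osmr, the oncostatin M receptor, had 5.64 ± 0.621 and 12.5 ± 1.67 CPM. With the agonist 2 rose and 4 fell in wild type, and 2 rose and 5 fell in knock-in, where 22.7% and 22.3%, and 18.1% and 19.1%, of all genes did. The interleukin-6 receptor chains moved apart: Il6ra fell from 79.4 ± 2.12 to 53.3 ± 1.57 CPM in wild type and from 61.1 ± 2.72 to 37.1 ± 0.899 CPM in knock-in, while Il6st (gp130) rose from 314 ± 11.5 to 466 ± 17.0 CPM and from 260 ± 7.52 to 319 ± 6.05 CPM.

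Acute-phase genes and known targets of C/EBPα were mostly lower in knock-in. Of 16 acute-phase genes tied to C/EBPβ and C/EBPδ, 1 was higher and 12 lower in untreated knock-in (median log2 change −0.37, 3 and 11 with total-count scaling), and 1 higher and 15 lower in treated knock-in (median −0.49; 0 and 15 with the replicate block). Over all genes 18.4% were higher and 18.6% lower without agonist, and 20.5% and 22.0% with it. Serpina3n had 1978 ± 168 CPM in untreated wild type and 1078 ± 11.4 CPM in knock-in (log2 change −0.87 ± 0.05 SE, edgeR adjusted p = 1.08e-14), and Crp 273 ± 21.1 and 161 ± 6.01 CPM with agonist. Cebpb and Cebpd passed in neither of these genotype comparisons in the fit over all libraries, and the alternatives in which they did are given with each gene. Of 11 C/EBPα targets 1 was higher and 9 lower in untreated knock-in (median −0.35), and 2 higher and 7 lower in treated knock-in (median −0.51). Alb, the albumin gene and on the FOXA list as well, had 102106 ± 1645 CPM in untreated wild type and 70529 ± 2268 CPM in knock-in (−0.53 ± 0.04 SE, edgeR adjusted p = 6.72e-13). The sum of the hepatocyte markers other than Alb overlapped between the untreated genotypes, as given above. With agonist it did not overlap and was lower in knock-in (15154 to 15631 against 15927 to 16100 CPM). Single markers within that sum moved both ways. Apoa1 was lower in untreated knock-in (5404 ± 27.8 against 6023 ± 316 CPM) and Apob higher (6591 ± 16.5 against 5580 ± 202 CPM). More of their means were lower than higher. Lower too were Ttr (2478 against 2667 CPM), Serpina1a (149 against 238), Trf (759 against 817) and Cps1 (1870 against 1970, not called). Fgb was higher (1253 against 1169 CPM, not called).

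With agonist, 22.7% of all genes rose and 22.3% fell in wild type, and 18.1% rose and 19.1% fell in knock-in. Of 10 FOXA targets 3 rose and 3 fell in wild type (2 and 4 with total-count scaling), near those shares, and 3 rose and 5 fell in knock-in, the medians being −0.01 and −0.11. Tat, the tyrosine aminotransferase gene, fell from 134 ± 7.98 to 23.7 ± 4.25 CPM in wild type (log2 change −2.50 ± 0.09 SE, edgeR adjusted p = 6.23e-11) and from 108 ± 1.69 to 23.2 ± 1.16 CPM in knock-in. Igfbp1, which binds insulin-like growth factors, fell from 339 ± 23.8 to 150 ± 3.5 CPM and from 335 ± 15.2 to 147 ± 8.72 CPM, while G6pc, whose enzyme releases free glucose, went from 7.32 ± 1.02 up to 30.6 ± 1.62 CPM and from 3.40 ± 0.106 up to 18.7 ± 1.14 CPM. FOXA targets were 3 higher and 5 lower in untreated knock-in and 2 higher and 4 lower in treated knock-in. Over all genes 18.4% were higher and 18.6% lower in untreated knock-in, and 20.5% and 22.0% in treated knock-in. Of the C/EBPα targets 3 rose and 4 fell with agonist in wild type and 2 rose and 6 fell in knock-in. Cps1, the entry enzyme of the urea cycle, fell from 1970 ± 145 to 542 ± 20.7 CPM in wild type and from 1870 ± 15.6 to 790 ± 26.7 CPM in knock-in, while Gys2, liver glycogen synthase, rose from 38.1 ± 2.65 to 74.4 ± 2.83 CPM and from 30.5 ± 1.19 to 42.6 ± 0.952 CPM. Of the 16 acute-phase genes 5 rose and 6 fell in wild type (3 and 8 with total-count scaling) and 2 rose and 6 fell in knock-in, and the fibrinogen gene Fgb fell from 1169 ± 34.7 to 755 ± 30.5 CPM and from 1253 ± 74.4 to 689 ± 14.1 CPM.

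The 9 targets of ONECUT1 or PROX1, a list that holds Foxa2, included 2 that rose and 5 that fell with agonist in wild type (1 and 5 with total-count scaling) and 1 and 4 in knock-in, where 22.7% and 22.3%, and 18.1% and 19.1%, of all genes did. Between genotypes 4 were higher and 3 lower untreated, and 2 higher and 3 lower treated (4 and 3 with total-count scaling), against 18.4% and 18.6%, and 20.5% and 22.0%, of all genes. Pfkfb1, a bifunctional enzyme that sets the rate of glycolysis, had 12.7 ± 0.850 CPM in untreated wild type and 19.8 ± 1.29 CPM in knock-in (log2 change 0.64 ± 0.07 SE, edgeR adjusted p = 2.12e-08), and fell to 8.87 ± 0.725 CPM with agonist in wild type. Cyp7a1, the rate-limiting enzyme of bile acid synthesis, was near the limit of detection, with 0.637 ± 0.194 CPM in wild type without agonist and 0.0343 ± 0.0329 CPM with it.

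The genes whose pattern over the 12 libraries was most like each factor gene were searched among 10950 tested genes averaging 1 CPM or more. The libraries form 4 groups, so a high correlation mostly reflects alike group means, and any error in the scaling of a library is shared by all genes. For Foxa1 these were Klhl5 (Pearson r = 0.986 over 12 libraries), Dmpk (0.984) and Muc13 (0.983), the last an epithelial mucin with 4.86 CPM in untreated wild type and 41.2 CPM in treated knock-in. For Foxa2 they were Limd2 (0.990), Fmo2 (0.989) and Sorl1 (0.988), and for Foxa3 the factor gene Tbx3 (0.980), the LIM-domain binding gene Ldb1 (0.980) and the nucleoside transporter gene Slc29a1 (0.979). Onecut1 was most alike to Fam241b (0.983), Nectin2 (0.980) and Anxa2 (0.973), and Prox1 to Lrch1 (0.988), Fzd5 (0.983) and Sephs2 (0.983). The best matches of Cebpd were Zfp212 (0.958), Cbfa2t2 (0.953) and Zfp334 (0.950). Those of Cebpb were Mul1 (0.914), Map1lc3a (0.909) and Rabac1 (0.896), and those of Cebpa were Spp2 (0.902), Fkbp14 (0.890) and Pithd1 (0.855), the lowest top correlations among the 8.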

How the data were processed

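The deposited files hold raw read counts per gene, 1 file for each of 12 libraries. Per the file headers, the authors ran featureCounts 1.6.2 on exons and added them up per gene, with no strand or multi-mapping option, on Subread alignments to mm10 with Ensembl release 83. The submitters' processing notes name featureCounts 1.4.6-p4, with FastQC 0.11.2 and cutadapt 1.9. Per the labels' protocols, libraries were made with TruSeq and sequenced in 2 rounds, which the files do not separate. The agonist's dose is printed with an impossible unit and is not given.

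Symbols were matched for 46488 of 46983 gene IDs. The filter filterByExpr (at least 10 counts, total at least 15) kept 15664 genes. After TMM scaling, edgeR 4.0.16 (R 4.3.3, robust quasi-likelihood) fitted 1 term per group over all 12 libraries. DESeq2 1.42.0, voom in limma 3.58.1 with a quality weight per library, other scalings, filters and sample sets were alternatives. Tested on simulated data over 15664 genes, the untreated genotype comparison recovered 66% of 1.25-fold and 90% of 2-fold changes, CP775146 in wild type 68% and 86%, and the interaction 42% and 78%. In each simulation 50 genes were changed per fold and 15464 were left unchanged. Far more genes were called in the data, so these rates need not hold there. Counts of replicates differed by more than sampling noise in every pair. Same-numbered libraries deviated together between treated wild type and treated knock-in alone (r = 0.121 to 0.137 in 3 pairs, −0.119 to −0.003 in 6 pairs of different numbers), a pairing seen in the data and not given by the labels, and the fit with the replicate number as a block is given for that comparison. In the other pairs of groups at most 1 of 3 same-numbered pairs exceeded 0.1. RPKM used exon length not shared with other genes. Promoter stretches are RefSeq's (GRCm38.p6), found for 7 of the 8 genes.

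The 8 genes, the other gene lists and the markers were chosen with earlier results of these data known. Counts over lists include genes that are not reported here by name. From each list up to 3 genes per comparison with the smallest adjusted p were to be named, and for each of the 8 genes the 3 with the highest correlation of log2 CPM (prior count 2).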

Additional observations from a re-analysis of the deposited data

Results flagged for a closer look

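Of the 8 factor genes 0 passed edgeR's interaction test over all genes (knock-in response minus wild-type response, log2 scale). The unadjusted 95% intervals of 5 lay off 0, but the share of all genes with such an interval is not given here. The 5 are therefore not read as a result. In simulated data with far fewer changed genes than were called here, that test recovered 42% of the smallest differences simulated. Cebpa passed without untreated wild-type replicate 2 (−0.207, edgeR adjusted p = 0.0498). Of 75 distinct tested genes of the other lists 14 passed, where 7.11% of all genes did. They are the 13 below and Rxra (0.24 ± 0.05 SE, edgeR adjusted p = 0.00392), which encodes the dimer partner of PPARα and is named here after its value was seen. Among the other hepatocyte factor genes, Creb3l3 had an interaction of −0.86 ± 0.07 (SE, edgeR adjusted p = 1.42e-09), rising by 3.5 in wild type and 2.64 in knock-in. Klf15 (0.50 ± 0.08, edgeR adjusted p = 0.000167) and Nr5a2 (0.41 ± 0.07, edgeR adjusted p = 0.000365) had positive interactions. Of the C/EBPα and FOXA targets, Cps1 had 0.62 ± 0.06, falling by 1.86 in wild type and 1.24 in knock-in. Gys2 had −0.48 ± 0.07, rising by 0.97 and 0.48, and Trf had −0.33 ± 0.06. Il6st had −0.27 ± 0.05, rising by 0.57 in wild type and 0.30 in knock-in, and the fibrinogen gene Fgg −0.35 ± 0.05.

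Another 5 calls did not hold when 1 library was left out. Fgb (−0.23 ± 0.06) was lost without treated wild-type replicate 1 (−0.183) or untreated knock-in replicate 2 (−0.190), and the acute-phase gene Saa2 (−0.23 ± 0.06) without treated wild-type replicate 3 (−0.174). The albumin gene Alb (−0.18 ± 0.05) was lost without untreated wild-type replicate 1 (−0.181), treated wild-type replicate 3 (−0.144), untreated knock-in replicate 1 (−0.163) or 2 (−0.182), or treated knock-in replicate 1 (−0.170) or 3 (−0.185). The transthyretin gene Ttr (−0.25 ± 0.07) was lost without untreated wild-type replicate 1 (−0.226) or 2 (−0.226), treated wild-type replicate 3 (−0.187), untreated knock-in replicate 1 (−0.255) or 2 (−0.249), or treated knock-in replicate 1 (−0.226). The leucine zipper gene Tef (0.21 ± 0.06) was lost without untreated wild-type replicate 1 (0.208) or 3 (0.190), treated wild-type replicate 3 (0.200), untreated knock-in replicate 1 (0.203), 2 (0.203) or 3 (0.210), or treated knock-in replicate 1 (0.185) or 2 (0.209). Other processing also cost some of these calls. Total-count scaling lost Alb (−0.145) and Ttr (−0.216). The replicate number as a block within genotype lost Alb (−0.180) and Tef (0.210), and Tef was lost with no filter (0.199).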

How the results depend on the processing

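Over all alternatives, the agonist calls of Foxa1, Foxa2, Foxa3, Cebpd, Onecut1 and Prox1 in both genotypes, the genotype calls of Foxa1 and Foxa2 in both treatments and that of Onecut1 without agonist kept their direction and side of the threshold. Of all values of single factor genes under alternatives, 752 kept both, 33 reversed (each of a change that was not called, except Prox1), 18 passed newly and 13 no longer passed. Total-count scaling gave 4 genes higher in treated knock-in (2 with TMM) and 0 lower in either genotype comparison (2 each). Genes lower in untreated knock-in were 1 with no filter. Leaving out 1 library gave 1 to 3 lower in untreated knock-in, 1 to 3 lower in treated knock-in, 2 to 3 higher in treated knock-in, and 0 to 1 with a negative interaction (1 without untreated wild-type replicate 2, Cebpa).

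Reversed were Cebpa with agonist in knock-in (0.003 with the compared groups alone, 0.006 by voom), Cebpa (0.031) and Prox1 (0.011) in treated knock-in and Cebpd in untreated knock-in (0.028), all with total-count scaling, and 2 interactions. For Cebpb the interaction was 0.005 with size factors of DESeq2's kind, 0.035 with total counts and 0.004 by DESeq2, and for Prox1 0.003, 0.032 and 0.003, and 0.023 by voom. Leaving out 1 library gave −0.036 to 0.014 for Cebpa with agonist in knock-in, −0.264 to 0.001 for Cebpb with agonist in wild type, −0.163 to 0.006 for Cebpd in untreated knock-in, −0.004 to 0.079 for the Foxa3 interaction, −0.136 to 0.128 for that of Cebpb and −0.044 to 0.035 for that of Prox1. The cause was not tested.

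With the replicate number as a block, the Cebpb interaction was 0.004 (0.008 with the block within genotype), and the Cebpa difference in treated knock-in passed (−0.107, edgeR adjusted p = 0.0422). Among the 8 genes and the other genes named for treated knock-in against treated wild type, where same-numbered libraries deviated together, the block changed no other call.

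Over all genes, total-count scaling gave 5024 higher and 1722 lower in untreated knock-in (2884 and 2918 with TMM), 2358 and 5338 with agonist in wild type (3553 and 3496), 5950 and 1867 in treated knock-in (3218 and 3447), and 663 positive interactions (435). Leaving out 1 library gave 251 at the fewest positive interactions.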
